A study of Mus musculus with 6 samples.

Results

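The genes described here encode the transferases that extend and cap the sugar chains of glycoproteins and glycolipids: the sialyltransferases (St3gal, St6gal, St6galnac and St8sia genes), the fucosyltransferases (Fut followed by a number), the galactosyltransferases (B3galt and B4galt), the N-acetylglucosamine transferases (B3gnt and Mgat) and the N-acetylgalactosamine transferases (Galnt). They were taken by symbol from the probe sets of the array that carry exactly 1 gene symbol. This gave 77 genes on 156 probe sets, out of 18193 genes named in this way. Each gene was measured on 6 Affymetrix arrays, 3 of Grem1+ cells and 3 of Grem1- cells from the bone marrow of 3 mice. The animals carried Grem1;TdTomato on a C57BL/6J background, were 6 to 8 weeks old and had received tamoxifen by mouth, and both fractions came from the same mice. The Grem1+ fraction is described in the labels only as sorted for Grem1. The Grem1- fraction was non-recombined and negative for CD45, CD31 and Ter-119, a gate that the labels give for that fraction alone.

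Sugar chains are built in the Golgi, where each transferase moves a sugar from an activated donor onto a growing chain. Galnt enzymes start mucin-type O-glycans on serine and threonine. Mgat enzymes branch N-glycans, B4galt and B3gnt enzymes lengthen the branches, and sialic acid and fucose finish them. In marrow, sialylated and fucosylated chains on leukocytes are the ligands that selectins bind, while cells that secrete cartilage matrix need galactosyltransferases for the linker on which chondroitin and heparan sulfate chains are built.

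All values are the authors' GCRMA expression values on the log2 scale, where a step of 1 is a doubling. Values of different genes come from different probes and are not set against each other. A value below log2 4 is called dim here, and 44.9 to 45.5% of probe sets were above it on an array, whose medians ran from 3.74 to 3.81. The labels call all animals male, but Xist stood at 10.60 in the Grem1+ and 11.04 in the Grem1- fraction of mouse 3 and at no more than 2.99 on the other 4 arrays, so the called genes below are also given without mouse 3. Grem1 itself was at 4.49, 4.14 and 8.61 in the Grem1+ fractions of mice 1, 2 and 3, against 3.69, 3.75 and 3.70 in their Grem1- fractions (limma adjusted p = 0.248). Ptprc, the gene of CD45, was at 7.29, 9.61 and 10.56 in Grem1+ and at 12.13, 11.78 and 12.37 in Grem1-, despite the CD45 gate. The Gapdh control of RNA length (3' minus 5', larger for shorter RNA) stood at 3.58 ± 0.51 in Grem1+ against 2.66 ± 0.34 in Grem1- (SD, n = 3 each).

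Of the 77 transferase genes, 40 had a probe set above log2 4 on 3 or more arrays and entered the test. Only 6 of the 40 passed the threshold, 4 higher and 2 lower in Grem1+. Fut4, B3gnt9, St6galnac2 and B4galt7 rose, and St8sia4 and B4galt6 fell. Of these, B3gnt9 was dim on all Grem1- arrays and entered the test only through its 3 Grem1+ arrays. With values below log2 4 set to 4 it lost its call (limma adjusted p = 0.113). The 6 genes are 15.0% of the 40, while 20.2% of all 10151 genes tested passed (11.7% higher and 8.51% lower), so the share is no larger than the background. The two-sided limma test took the mouse as a block, and Benjamini-Hochberg adjustment ran over the 10151 genes with a threshold of 0.05. Without the replicate block 9 of the 40 were higher and 4 lower (32.5%, where 25.1% of all genes were called), and with any of the 3 mice left out and the block kept, no gene of the whole table passed in limma, although 2881 to 3018 genes had an unadjusted p under 0.05. The median difference, Grem1+ minus Grem1-, was 0.18 over the 40 genes and 0.04 over all genes, and 24 of the 40 differences were above 0.

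**Figure D1:**
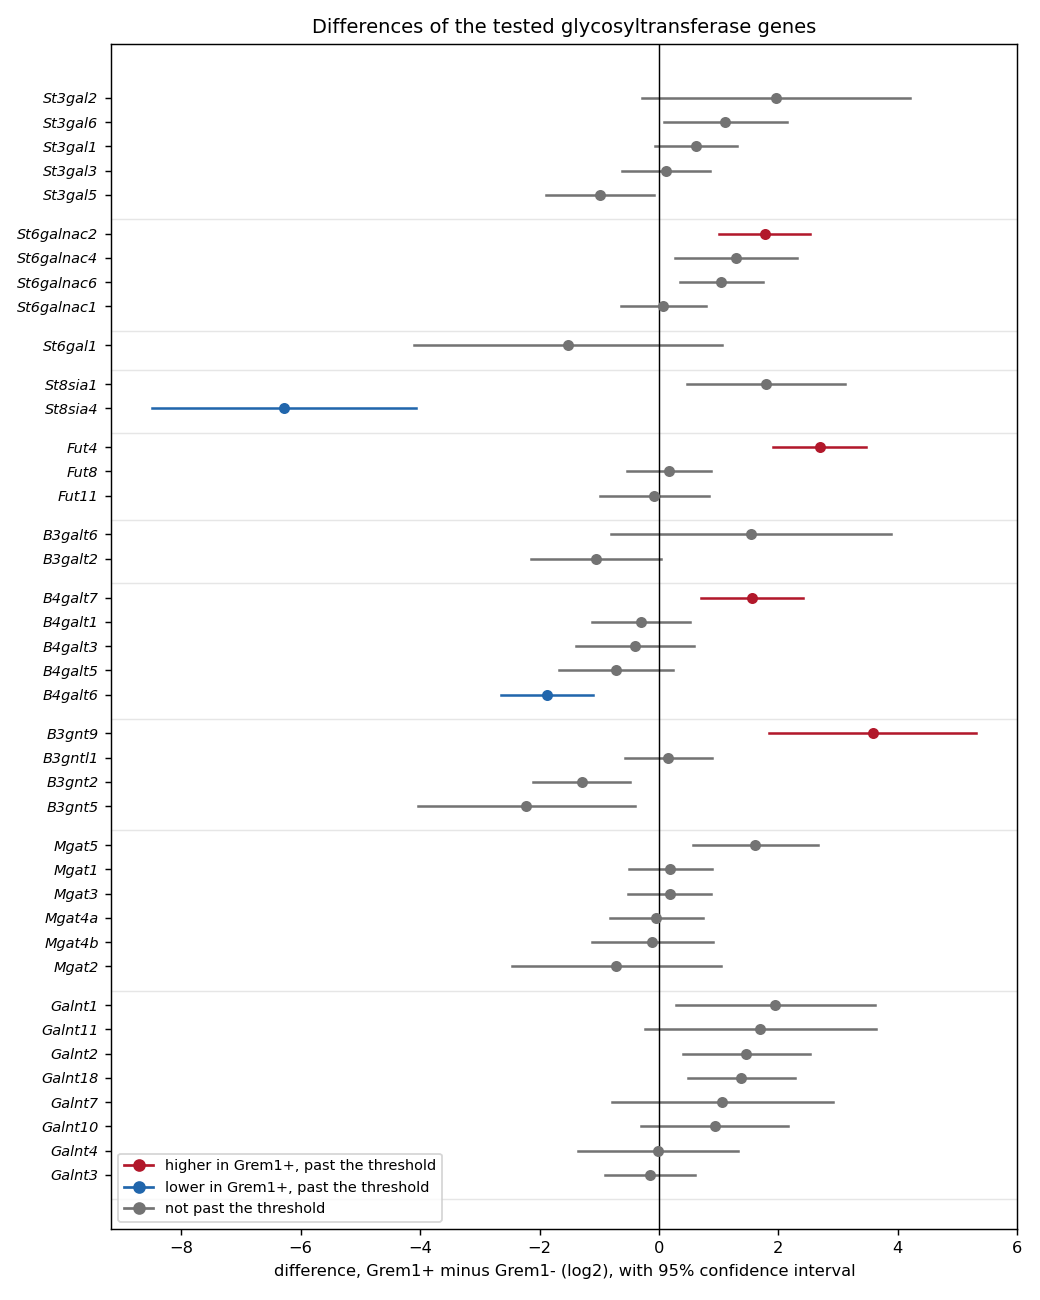
Differences of the 40 tested genes, Grem1+ minus Grem1- on the log2 scale, as points with 95% confidence intervals from limma, grouped by enzyme class from St3gal at the top to Galnt at the bottom. Red marks the 4 genes that were higher in Grem1+ past the threshold, blue the 2 that were lower (St8sia4 and B4galt6) and grey the 34 others. Values are as deposited, so those of St8sia1, B3gnt9 and Galnt18, dim on all Grem1- arrays, are not measured sizes.

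Several markers of other cells moved between the same arrays. Of 12 pan-haematopoietic genes 9 were lower in Grem1+ and 0 higher, and their summed log2 levels ran from 79.6 to 92.2 in Grem1+ and from 124 to 125 in Grem1-. Of 10 granulocyte genes 7 were lower, summing to 65.4 to 84.7 in Grem1+ against 105 to 106 in Grem1-. Of 11 chondrocyte genes 10 were higher and 0 lower, summing to 123 to 127 in Grem1+ against 76.7 to 84.5 in Grem1-. Of 5 osteoblast genes 3 were higher and 0 lower, summing to 39.2 to 43.7 in Grem1+ against 29.3 to 32.4 in Grem1-. Of 6 fibroblast genes 3 were higher and 0 lower, summing to 57.7 to 60.3 in Grem1+ against 38.0 to 44.7 in Grem1-. Lower genes numbered 3 of 6 for the B lineage, 3 of 4 for erythroid cells, 2 of 4 for macrophages and monocytes and 1 of 2 for megakaryocytes, and 0 of 2 for endothelium, with none higher. Of all genes tested, 11.7% were higher and 8.51% lower. Among the lower markers Cd79b, Vpreb1, Hemgn and Ly86 were dim on all Grem1+ arrays and entered the test only through the Grem1- arrays. The higher osteoblast gene Sp7 was dim on all Grem1- arrays and entered only through the Grem1+ arrays. The part of these cells in the transferase differences was not tested. In sorted fractions measured in bulk, fewer cells of a type and less RNA per cell cannot be told apart.

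The gene that differed most was St8sia4, a polysialyltransferase that builds long chains of sialic acid on carriers such as the neural cell adhesion molecule. It was at 2.21, 5.73 and 4.21 in the Grem1+ fractions of mice 1, 2 and 3, against 10.51, 10.29 and 10.20 in their Grem1- fractions. The Grem1- arrays lay close together and the Grem1+ arrays were spread over more than 3 log2 units, with no overlap. The difference was -6.28 (SE 0.80, limma adjusted p = 0.0181), or -5.68 with values below log2 4 set to 4, and -6.43 without mouse 3. A further probe set was at 3.50, 3.08 and 3.22 in Grem1+, dim on every array, against 6.80, 7.94 and 8.25 in Grem1-. Both St8sia4 probe sets passed in limma when each probe set was tested on its own (adjusted p = 0.0179 and 0.0135). The further one entered that test only through its 3 Grem1- arrays. Its p-value is for values as deposited and is no separate support. Ncam1, which encodes the neural cell adhesion molecule, was at 9.31, 10.27 and 10.28 in Grem1+ and at 10.10, 10.27 and 10.69 in Grem1-, where the groups overlap (difference -0.40, adjusted p = 0.411).

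RefSeq promoter sequences (build GRCm38.p6, 250 bases before to 50 after the annotated start, written 5' to 3' on the strand of the gene) were found for 57 of the 77 genes. Of the 6 genes past the threshold, 3 had an entry, and these are shown: St8sia4, which fell, and Fut4 and B4galt7, which rose. Capitals mark letters that match RUNX (TGTGGT), PU.1 (GAGGAAG), SOX (ACAATG) or the GATA factors (AGATAA), as core motifs on either strand.
St8sia4, chr1:95667545-95667844, minus strand: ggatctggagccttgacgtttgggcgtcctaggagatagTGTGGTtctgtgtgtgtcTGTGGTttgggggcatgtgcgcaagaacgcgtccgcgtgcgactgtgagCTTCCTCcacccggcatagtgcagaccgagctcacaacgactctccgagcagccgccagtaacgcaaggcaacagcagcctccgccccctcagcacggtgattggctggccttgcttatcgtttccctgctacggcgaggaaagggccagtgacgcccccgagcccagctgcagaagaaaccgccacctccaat
Fut4, chr9:14752073-14752372, minus strand: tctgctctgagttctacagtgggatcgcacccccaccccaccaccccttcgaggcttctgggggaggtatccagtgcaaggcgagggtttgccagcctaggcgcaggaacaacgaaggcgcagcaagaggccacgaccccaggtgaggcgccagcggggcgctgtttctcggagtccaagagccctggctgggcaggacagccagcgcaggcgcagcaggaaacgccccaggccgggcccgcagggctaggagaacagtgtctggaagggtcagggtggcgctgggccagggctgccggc
B4galt7, chr13:55599646-55599945, plus strand: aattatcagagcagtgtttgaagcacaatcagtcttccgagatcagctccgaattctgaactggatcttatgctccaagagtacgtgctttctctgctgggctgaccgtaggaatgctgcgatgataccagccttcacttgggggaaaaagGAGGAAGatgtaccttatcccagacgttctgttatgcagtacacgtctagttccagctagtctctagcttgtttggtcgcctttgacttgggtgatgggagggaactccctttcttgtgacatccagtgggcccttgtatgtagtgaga
The St8sia4 window holds the RUNX letters 2 times and, on the other strand, the PU.1 letters, and none of these matches overlap. The B4galt7 window holds the PU.1 letters, and the Fut4 window holds none of the 4 motifs. Of 32851 promoters of the same length, 16.8% hold the RUNX letters, 13.6% the PU.1 letters, 12.6% the SOX letters and 11.2% the GATA letters. The St8sia4 window has 22 CpG sites, the Fut4 window 18 and the B4galt7 window 8, where the median over all promoters is 7. These matches describe letters and not bound sites.

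**Figure D2:**
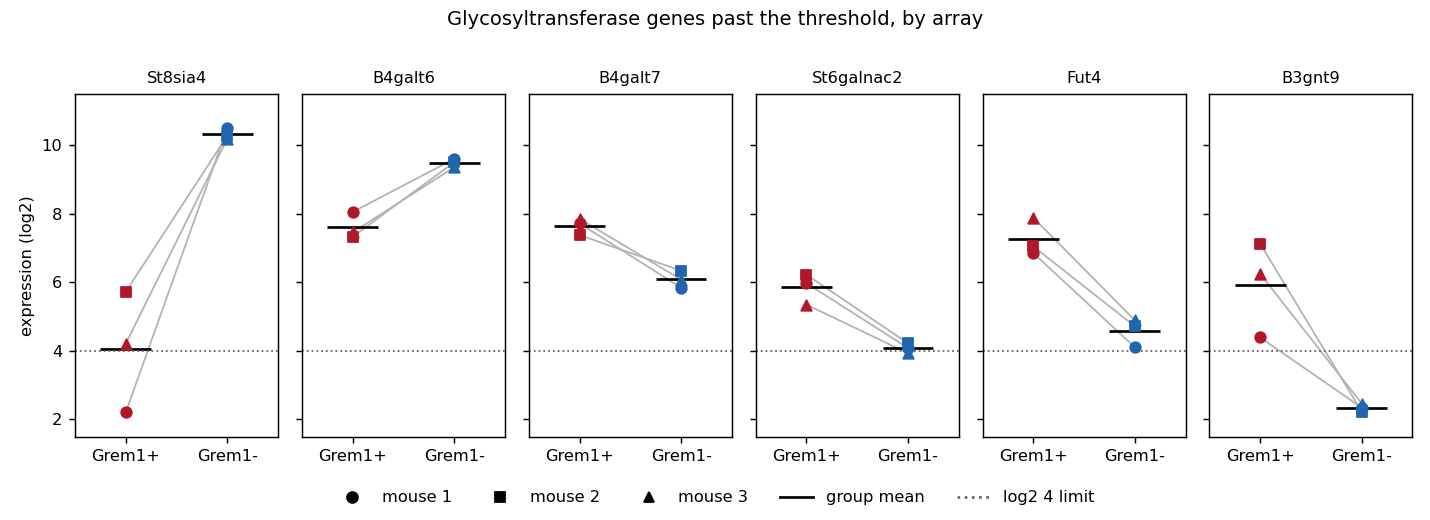
Log2 expression of the 6 transferase genes past the threshold on each of the 6 arrays, with Grem1+ (red) left of Grem1- (blue), a grey line joining the fractions of a mouse, and a black bar at each group mean. St8sia4 lies between 10.20 and 10.51 on the Grem1- arrays and at or below 5.73 on the Grem1+ arrays, and B3gnt9 is below the dotted log2 4 limit on all Grem1- arrays.

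The other sialyltransferases of the St8sia class add sialic acid to sialic acid on glycolipids and glycoproteins. St8sia1, which makes the ganglioside GD3, was at 4.14, 5.93 and 5.73 in Grem1+ and was dim in Grem1- at 3.47, 3.23 and 3.73. It entered the test only through its 3 Grem1+ arrays. With values below log2 4 set to 4 the difference was 1.27, so the fold is only a bound of at least 2.41, and the gene did not pass (limma adjusted p = 0.0746 on the values as deposited). St8sia2, the other polysialyltransferase, was dim on all 6 arrays of both its probe sets, from 2.24 to 3.59. St8sia3 (3.11 to 3.69) and St8sia5 (3.12 to 3.67) were dim throughout, and St8sia6 (2.42 to 5.21) was above log2 4 on 1 array only.

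The St6galnac enzymes attach sialic acid to the N-acetylgalactosamine of O-glycans and, for some members, of gangliosides. All 4 tested genes of this class had a positive difference, that of St6galnac1 being only 0.072, and 1 passed. Over all genes tested, 52.0% had a positive difference and 20.2% passed, 11.7% of them all as higher. St6galnac2, which acts on O-glycans, was at 5.98, 6.23 and 5.35 in Grem1+, against 4.08, 4.22 and 3.93 in Grem1-. The Grem1+ arrays were all higher, by 3.41-fold on average (difference 1.77, SE 0.28, adjusted p = 0.0256), and by 1.95 on the log2 scale without mouse 3. The St6galnac2 values in Grem1- lay near the log2 4 limit, and with values below it set to 4 the difference was 1.75. Its other probe set differed by 0.047, and with the mean of both the gene did not pass (0.91, adjusted p = 0.0696, where p-values over alternatives with all mice ran from 0.0098 to 0.0696). St6galnac4 was at 5.75, 5.01 and 4.70 in Grem1+ and at 3.68, 4.06 and 3.87 in Grem1-. St6galnac6 was at 5.47, 5.48 and 5.11 in Grem1+ and at 4.40, 4.55 and 3.98 in Grem1-. Neither gene overlapped between the groups, yet their differences of 1.28 (adjusted p = 0.0877) and 1.04 (adjusted p = 0.0602) did not pass, whereas with no replicate block both did (adjusted p = 0.0405 and 0.0393). A further St6galnac4 probe set differed by 0.67. St6galnac1, which makes the sialyl-Tn antigen, differed by 0.072 (95% confidence interval -0.64 to 0.79), while St6galnac3 (2.11 to 5.30) and St6galnac5 (2.16 to 3.68) were not tested.

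Of the St3gal and St6gal genes, whose enzymes cap terminal galactose, none of the 6 tested passed (limma gave 2, St3gal5 and St3gal6, an unadjusted p under 0.05). Over all genes tested, 20.2% passed and 3666 of 10151 had an unadjusted p under 0.05, so these counts are no result about the class. St3gal1, which caps core 1 O-glycans, was at 8.96, 8.73 and 8.66 in Grem1+, against 8.33, 8.05 and 8.08 in Grem1-. The difference of 0.63 (95% confidence interval -0.059 to 1.32, adjusted p = 0.163) was of nearly the same size in each mouse. A further St3gal1 probe set differed by -0.40. St3gal6, whose product can be part of sialyl Lewis x, differed by 1.11 (adjusted p = 0.119), and by 0.23 on a further probe set whose groups overlap. St3gal2 was at 9.36, 6.85 and 5.39 in Grem1+ and between 5.16 and 5.35 on the Grem1- arrays. Its difference of 1.96 (SE 0.81, adjusted p = 0.176) was 0.94 without mouse 1. A further St3gal2 probe set differed by 2.16 and passed on its own (adjusted p = 0.0477). St3gal3 differed by 0.12, and St3gal4, whose lowest value was 2.58, was just above log2 4 on 1 array. St6gal1, which places sialic acid on N-glycans and makes ligands of CD22, was at 2.50, 6.06 and 6.22 in Grem1+ and at 6.60, 6.48 and 6.26 in Grem1-. Mouse 1 alone was dim, and without it the difference of -1.52 was -0.23.

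Of the fucosyltransferase genes, Fut4 rose. Its enzyme adds fucose to make the Lewis x antigen (CD15), also on myeloid cells. Fut4 was at 6.86, 7.05 and 7.89 in Grem1+, against 4.11, 4.72 and 4.90 in Grem1-. Every Grem1+ array was above every Grem1- array, and the mean was 6.45-fold higher (difference 2.69, SE 0.28, adjusted p = 0.0139), or 2.54 on the log2 scale without mouse 3. The gene passed under all 12 alternatives that kept the 3 mice. Its other probe set was dim on all arrays. Fut7, the main fucosyltransferase of selectin ligands on leukocytes, was dim on all 6 arrays, from 3.54 to 3.82, and could not be tested.

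Fut8, which adds the core fucose of N-glycans, was at 5.43, 5.04 and 5.13 in Grem1+ and at 5.20, 5.04 and 4.84 in Grem1-. The groups overlap, and the difference of 0.17 had a 95% confidence interval of -0.53 to 0.88. Fut11 was at 5.60, 6.48 and 6.52 in Grem1+ and at 6.31, 6.27 and 6.26 in Grem1- (difference -0.081, adjusted p = 0.896). Its 3 passing probe sets disagreed. The others differed by -1.09 and by 2.27, and the last was past the threshold on its own (adjusted p = 0.0304), with 6.47, 6.12 and 5.59 in Grem1+ and 3.40, 4.45 and 3.51 in Grem1-. Fut1 (3.07 to 3.44) and Fut2 (2.72 to 3.64), which make the H antigen, and Fut9 (1.64 to 2.48) were dim on every array, and Fut10 (1.51 to 4.85) came nearest to entry.

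The galactosyltransferases moved both ways. B4galt7 adds the first galactose of the linker that joins chondroitin and heparan sulfate chains to proteoglycan cores. It was at 7.72, 7.38 and 7.86 in Grem1+, against 5.84, 6.34 and 6.08 in Grem1-, with no overlap. The mean was 2.95-fold higher (difference 1.56, SE 0.31, adjusted p = 0.0398), 1.46 on the log2 scale without mouse 3 and 1.96 on its other probe set, which also passed on its own (adjusted p = 0.0217). B4galt7 lost its call without the filter on dim probe sets (adjusted p = 0.0570) and with an intensity trend (adjusted p = 0.0731), and its p-values over alternatives with all mice ran from 0.0097 to 0.0731. Summed log2 levels of chondrocyte, osteoblast and fibroblast genes on the same arrays are given above.

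B3galt6 adds the next galactose of the same linker, and its 2 passing probe sets did not give the same answer. The brighter was at 9.10, 4.68 and 6.76 in Grem1+ and at 5.78, 5.35 and 4.80 in Grem1-, where mouse 2 went the other way (difference 1.54, adjusted p = 0.284). The other was at 6.40, 8.15 and 9.43 in Grem1+ and at 2.97, 4.18 and 4.25 in Grem1-. On that probe set each Grem1+ array was higher, by 4.20 on average, and it passed on its own (adjusted p = 0.0137). B3galt2 was at 2.64, 4.17 and 4.14 in Grem1+ and at 4.56, 4.84 and 4.70 in Grem1- (difference -1.05, adjusted p = 0.146), and its further probe set differed by -0.0082. B3galt1 (1.89 to 5.39), B3galt4 (3.67 to 4.03) and B3galt5 (2.58 to 4.17) were each above the limit on no more than 1 array of a probe set and were not tested.

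B4galt6 makes lactosylceramide, the base of most gangliosides, as does B4galt5. B4galt6 was at 8.06, 7.33 and 7.46 in Grem1+, against 9.61, 9.51 and 9.36 in Grem1-, with no overlap. It fell by 1.88 on the log2 scale (SE 0.28, adjusted p = 0.0230), and by 1.86 without mouse 3. Its 4 passing probe sets differed by -1.55 to -1.92, and only the one used here passed on its own. The probe set at -1.55 was dim on all Grem1+ arrays and entered only through its 3 Grem1- arrays, so that is not a measured size. The B4galt6 call was lost with the most variable probe set (-1.92, limma adjusted p = 0.0675). Adjusted p-values over alternatives with all mice ran from 0.0064 to 0.0675. B4galt5 was at 6.07, 6.74 and 5.05 in Grem1+ and at 6.45, 7.11 and 6.47 in Grem1- (difference -0.72, adjusted p = 0.226). B4galt1, the chief galactosyltransferase of N-glycans, was at 7.43, 8.07 and 7.71 in Grem1+ and at 8.13, 8.37 and 7.61 in Grem1-. Its groups overlap, and the difference of -0.30 had a 95% confidence interval of -1.12 to 0.52. B4galt3 differed by -0.40 (adjusted p = 0.493) and by -1.39 on a further probe set, while B4galt2 (2.79 to 3.32) and B4galt4 (2.83 to 5.35) were not tested.

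Glycolipid genes on either side of B4galt6 can be followed along the pathway. Ugcg makes glucosylceramide, the substrate of B4galt5 and B4galt6, and was at 7.52, 7.56 and 7.64 in Grem1+, against 9.69, 9.43 and 8.75 in Grem1-. It fell by 1.72 on the log2 scale (SE 0.33, adjusted p = 0.0381). St3gal5, which turns lactosylceramide into the ganglioside GM3, was at 8.91, 8.09 and 8.14 in Grem1+ and at 9.29, 9.50 and 9.31 in Grem1-. On this probe set the groups do not overlap, but the difference of -0.99 (95% confidence interval -1.89 to -0.076) did not pass (adjusted p = 0.118). A further St3gal5 probe set, whose groups overlap, differed by -0.77 and did not pass on its own (limma adjusted p = 0.141). B4galnt1, which makes GM2 and GD2, was at 4.33, 6.14 and 4.03 in Grem1+ and at 6.27, 7.81 and 7.19 in Grem1-. It fell by 2.26 on the log2 scale (SE 0.40, adjusted p = 0.0325). Of the 7 genes plotted for these steps, chosen after their values were seen, 3 passed (Ugcg, B4galt6 and B4galnt1) and 4 did not (B4galt5, St3gal5, B3gnt5 and St8sia1). Of all 10151 genes tested 20.2% passed, but a count of genes chosen in this way cannot be read against that share.

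**Figure D3:**
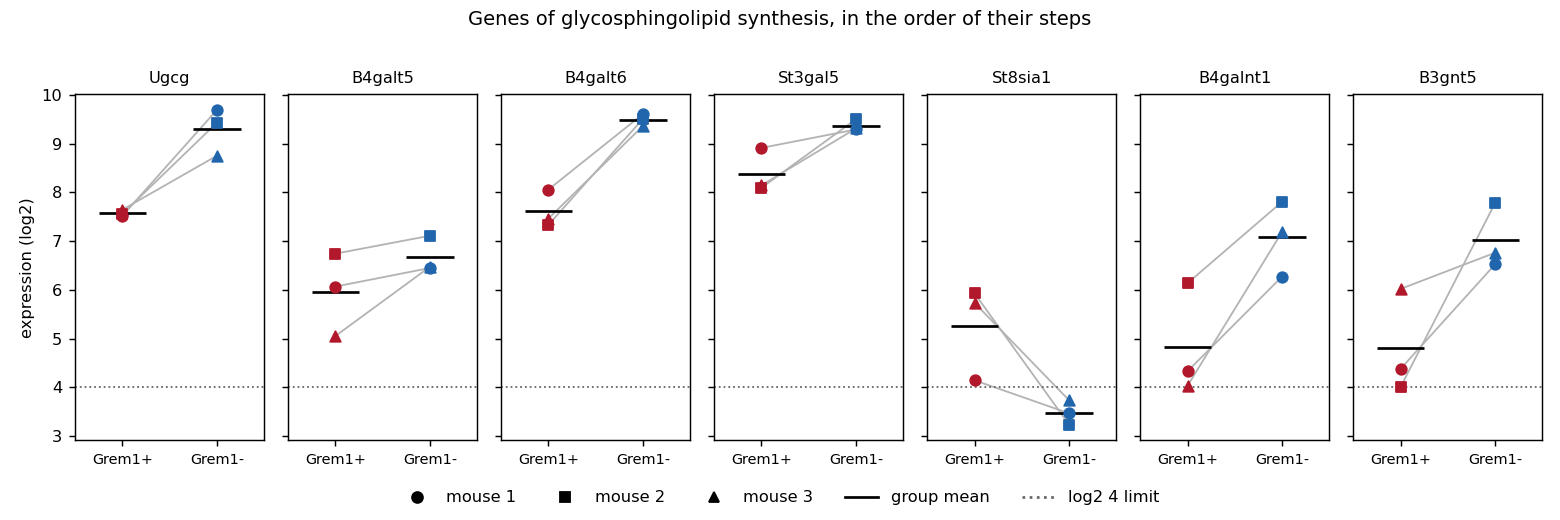
Log2 expression on each of the 6 arrays for genes of glycosphingolipid synthesis, with Grem1+ (red) left of Grem1- (blue), lines joining the fractions of a mouse and black bars at group means. The panels are not a single chain of steps. B4galt5 and B4galt6 share a step, and B3gnt5, plotted last, acts on lactosylceramide, as St3gal5 does. Ugcg, B4galt6 and B4galnt1 were past the threshold and lower in Grem1+, St8sia1 is the gene with the higher Grem1+ mean, and levels of different genes are not comparable.

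The B3gnt enzymes extend chains with N-acetylglucosamine. B3gnt9 was at 4.39, 7.13 and 6.25 in Grem1+ and dim in Grem1- at 2.34, 2.23 and 2.46. It was at least 3.80-fold higher in Grem1+ (adjusted p = 0.0315), but entered the test only through its 3 Grem1+ arrays, and with values below log2 4 set to 4 it did not pass (difference 1.92, adjusted p = 0.113), nor did it without the filter on dim probe sets (adjusted p = 0.0762, where p-values over alternatives with all mice ran from 0.0129 to 0.113). Values as deposited, of which those in Grem1- are below the limit, gave 3.58, and 3.48 without mouse 3, neither of which is a measured size. B3gnt2, the main enzyme of polylactosamine chains, was at 9.46, 10.33 and 9.78 in Grem1+, against 11.15, 11.23 and 11.07 in Grem1-. All Grem1+ arrays were lower, by 1.30 on average, just outside the threshold (adjusted p = 0.0533), which it passed with no replicate block (adjusted p = 0.0255). A further B3gnt2 probe set differed by -0.92 and did not pass on its own (limma adjusted p = 0.283). Its groups overlap, and mouse 1 went the other way, by 0.23.

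B3gnt5, which starts lacto-series glycolipids from lactosylceramide, was at 4.38, 4.01 and 6.02 in Grem1+ and at 6.52, 7.78 and 6.76 in Grem1-. The groups do not overlap, and the difference of -2.22 (95% confidence interval -4.04 to -0.40) did not pass (adjusted p = 0.0924), whereas with no replicate block it did (adjusted p = 0.0451). B3gntl1 differed by 0.16 (adjusted p = 0.726). B3gnt3 (2.86 to 3.42), B3gnt7 (3.26 to 3.58) and B3gnt8 (2.70 to 3.63) were dim on every array, and B3gnt4 (3.60 to 4.40) and B3gnt6 (2.61 to 4.71) were above the limit on 1.

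None of the 6 tested Mgat genes passed, and by limma 1 of them, Mgat5, had an unadjusted p under 0.05. Of all genes tested 20.2% passed, and 3666 of 10151 had an unadjusted p under 0.05. With 6 genes these counts are no result about the class. Mgat5, which adds the β1,6 branch of N-glycans, was at 8.10, 7.74 and 9.15 in Grem1+, against 6.52, 6.82 and 6.81 in Grem1-. Every Grem1+ array was higher, and the difference of 1.62 (95% confidence interval 0.57 to 2.66) was just outside the threshold (adjusted p = 0.0564, and 0.0330 without the replicate block). Its 3 passing probe sets differed by 1.62, 1.42 and 0.47. The probe set at 1.42 was dim on all Grem1- arrays and entered only through its 3 Grem1+ arrays, so that is not a measured size. Mgat4a, which adds another branch, was at 8.61, 9.38 and 9.55 in Grem1+ and at 8.99, 9.08 and 9.59 in Grem1-. These values overlap throughout (difference -0.042, 95% confidence interval -0.82 to 0.74), and a further probe set differed by 0.57.

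Mgat1, which opens the way to complex N-glycans, differed by 0.19 and was at the edge of the filter with 3 arrays above the limit. Mgat2, which starts the opposite arm, differed by -0.72, with 4.72 on the Grem1+ array of mouse 1 against 7.03 on the Grem1- array of that mouse, and by 0.083 without mouse 1. A further Mgat2 probe set differed by 0.65. Mgat3, the enzyme of the bisecting sugar, differed by 0.18, and Mgat4b by -0.11. Mgat4c (1.47 to 1.78), Mgat4d (2.51 to 3.35), Mgat4e (2.21 to 2.49) and Mgat5b (3.37 to 3.73) were dim on all arrays.

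None of the 8 tested Galnt genes passed either, where 20.2% of all genes did. Of the 8 differences 6 were above 0, where 52.0% of all genes were, and limma gave 3 genes (Galnt1, Galnt2 and Galnt18) an unadjusted p under 0.05, as it did 3666 of all 10151 genes, a like share. Galnt1, among the widely expressed enzymes that start mucin-type O-glycans, was at 9.19, 8.76 and 8.59 in Grem1+, against 5.89, 8.21 and 6.59 in Grem1-. The groups do not overlap, but with a difference of 1.95 (SE 0.61) the gene missed the threshold (adjusted p = 0.101). Its other probe set differed by only 0.75 (adjusted p = 0.249). Galnt2, of the same kind, was at 6.61, 6.47 and 6.64 in Grem1+ and at 5.02, 4.34 and 5.97 in Grem1- (difference 1.47, adjusted p = 0.0728). A further Galnt2 probe set differed by 2.10 and passed on its own (adjusted p = 0.0410). Galnt18 was at 5.40, 4.41 and 4.60 in Grem1+ and was dim at 3.45, 3.49 and 3.33 in Grem1-. It too entered only through its 3 Grem1+ arrays, and its difference was 0.81 with values below log2 4 set to 4, a bound of at least 1.75-fold. It did not pass (adjusted p = 0.0573 on the values as deposited).

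Galnt4 was at 6.64, 7.44 and 7.09 in Grem1+ and at 5.50, 7.75 and 7.96 in Grem1-, where the groups overlap (difference -0.014, 95% confidence interval -1.35 to 1.33). Galnt11 differed by 1.70, Galnt7 by 1.06 and Galnt10 by 0.93, each with overlapping groups. Further passing probe sets differed by -0.66 for Galnt4, -0.47 for Galnt11, 0.42 and 0.98 for Galnt7 and 0.20 for Galnt10. Galnt3, known for protecting the hormone FGF23 from cleavage, differed by -0.16 (95% confidence interval -0.91 to 0.60). Of the 10 Galnt genes that were not tested, Galnt5 (2.31 to 4.31), Galnt12 (3.34 to 5.82) and Galnt15 (2.20 to 4.47) had a lone value above the limit. Galnt6 (2.12 to 3.74), Galnt9 (3.18 to 3.47), Galnt13 (1.96 to 2.99), Galnt14 (2.11 to 2.29), Galnt16 (3.42 to 3.58), Galntl5 (2.58 to 2.94) and Galntl6 (2.13 to 2.78) had none.

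Across the family, 27 of the 40 tested genes were above log2 4 on all 6 arrays, and 4 (St8sia1, B3gnt9, Mgat1 and Galnt18) were on exactly 3. Of the 37 genes not tested, 24 had no value above the limit on any probe set. The nearest outside were Fut10, at 4.02 and 4.68 on the Grem1+ arrays of mice 1 and 2, and St6galnac3, at 4.77 on the Grem1+ array of mouse 3 and 5.30 on the Grem1- array of mouse 2. St6gal2 (1.49 to 2.07) was dim on every array. Of the 40 genes, 25 had several probe sets that passed the filter. When each of the 70 passing probe sets was tested on its own, a setting added after the data were seen, 9 were higher and 3 lower (17.1%, against 17.8% of all 18157 named probe sets that passed).

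**Figure D4:**
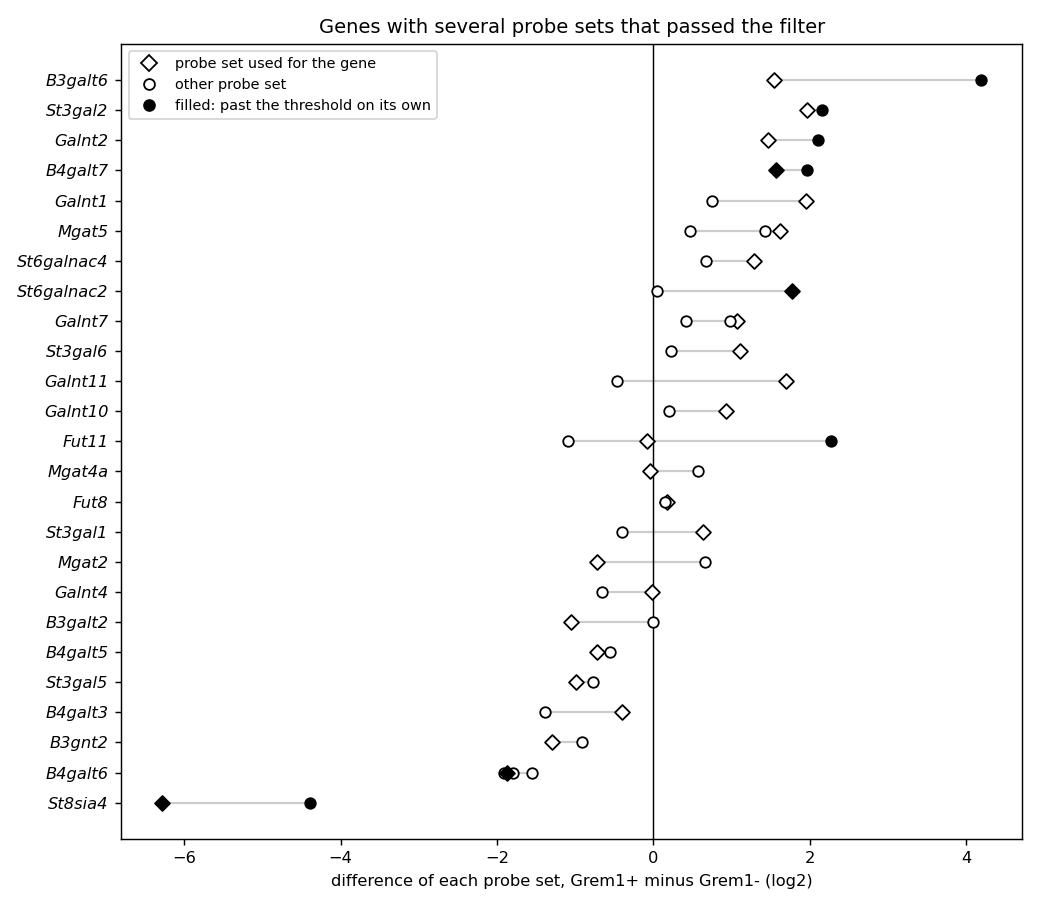
Difference, Grem1+ minus Grem1- on the log2 scale, of every passing probe set of the 25 genes that had several, with a diamond for the probe set used for the gene, circles for the others and filled symbols for those past the threshold on their own. The St8sia4, B4galt6 and B4galt7 probe sets lie on the same side of 0 as each other, whereas those of Fut11 run from -1.09 to 2.27. A St8sia4 and a B4galt6 probe set were dim on all Grem1+ arrays, and a Mgat5 probe set on all Grem1- arrays. The differences of these probe sets are not measured sizes.

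Genes that feed, open, trim or read the same sugar chains were taken from 6 lists, in which 54 genes were tested, 5 being higher and 9 lower in Grem1+ (25.9% called, where 20.2% of all genes were, 11.7% higher and 8.51% lower). The counts of single lists below are to be read against the same shares. Of 13 genes of sugar nucleotide supply and Golgi transport, 2 were higher and 1 lower, with a list median of 0.23. Slc35a1, the transporter that brings CMP-sialic acid into the Golgi, was at 9.01, 9.16 and 8.58 in Grem1+, against 6.05, 6.12 and 6.08 in Grem1-. It was 7.12-fold higher (difference 2.83, SE 0.28, adjusted p = 0.0127), while Slc35c1, the transporter of GDP-fucose, fell by 1.39 on the log2 scale (SE 0.25, adjusted p = 0.0341). Uap1, which makes UDP-N-acetylglucosamine, was higher by 1.97 (SE 0.33).

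Of 11 other transferases of the same glycans, 2 were higher and 4 lower, with a median of -0.65. Pofut2, which places fucose on thrombospondin repeats, was at 9.87, 8.31 and 8.90 in Grem1+, against 4.25, 3.06 and 3.95 in Grem1-, a difference of 5.28 (SE 0.28, adjusted p = 0.0091), or 4.94 with dim values set to 4. C1galt1, which turns the first sugar of mucin-type O-glycans into core 1, was at 6.89, 7.72 and 7.90 in Grem1+ and at 9.93, 9.68 and 9.86 in Grem1-, a fall that all 3 mice share (difference -2.32, SE 0.36, adjusted p = 0.0246). C1galt1c1, the chaperone of that enzyme, differed by 0.23 (adjusted p = 0.674). Ugcg and B4galnt1 of this list are given above.

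Of 9 trimming glucosidases and mannosidases, Mogs, which removes the outermost glucose of new N-glycans, was higher (1.41, SE 0.26, adjusted p = 0.0350) and 0 were lower, with a median of -0.04. Of 5 sialidases, fucosidases and related hydrolases none passed in limma, and 1, the lysosomal sialidase Neu1, had an unadjusted p under 0.05 (difference -1.75, adjusted p = 0.0649). Over all genes tested, 3666 of 10151 had one. By the naming rule the list is also represented by Fuca1, a lysosomal fucosidase that differed by 0.00079 (adjusted p = 0.999), and by Hexa, which cuts GM2 and differed by 0.20 (adjusted p = 0.650). Of 8 selectins and selectin ligand proteins 1 was lower and 0 higher, with a median of -0.44. That gene was Spn, the heavily sialylated leukosialin of blood cells, at 7.66, 6.18 and 8.88 in Grem1+ and at 12.08, 11.95 and 11.93 in Grem1- (difference -4.41, SE 0.60, adjusted p = 0.0202). Selplg, the protein backbone of the main P-selectin ligand, was dim in Grem1+ at 3.85, 3.55 and 3.76 and was at 4.68, 7.31 and 6.34 in Grem1-, and it did not pass (adjusted p = 0.0753).

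Of 8 siglecs and galectins, lectins that bind sialic acid and galactose, 3 were lower and 0 higher, with a median of -0.79. Cd33, a siglec of myeloid cells, differed by -4.70 (SE 0.64, adjusted p = 0.0202). Lgals9, the gene of galectin 9, was dim on all Grem1+ arrays and at least 5.14-fold lower. It entered the test only through its 3 Grem1- arrays. Its limma adjusted p of 0.0163 is for the values as deposited (difference -3.28, not a measured size) and not for that bound. Lgals1 was at 7.70, 8.87 and 8.43 in Grem1+ and at 11.03, 10.80 and 10.69 in Grem1- (difference -2.51, SE 0.39). Granulocyte and pan-haematopoietic marker sums, given above, were lower on the same Grem1+ arrays, and their part in the Spn, Cd33 and galectin differences was not tested.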

How the data were processed

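Per the labels' protocols, RNA came from the RNAqueous-Micro kit and amplification used NuGEN's Ovation One-Direct System. The table deposited by the authors holds a log2 expression value for each probe set and array, and the submitters' processing notes name GCRMA, without version or settings. The scale was judged from the values, and scanner files were not analysed here. Symbols came from the platform annotation: of 45101 probe sets, 64 were controls, 34945 had 1 symbol, 932 had several and 9160 were unnamed here.

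A probe set entered when above log2 4 on at least 3 arrays, a chosen limit and not a measured detection limit. Of a gene's passing probe sets the brightest on average stood for it, giving 10151 genes. Differences are Grem1+ minus Grem1-, from limma 3.58.1 (R 4.3.3, lmFit and eBayes, two-sided, Benjamini-Hochberg over all genes, threshold 0.05) with the mouse as a block and 2 residual degrees of freedom. Precision is limited by the number of arrays. A gene past the threshold that was dim on all arrays of a group is given as a bound, with values below 4 set to 4, and so are St8sia1 and Galnt18, which did not pass. Per the series design text the fractions are matched by mouse, so the number in each title pairs the samples. Deviations from group means of same-numbered arrays correlated at 0.014, 0.074 and 0.046 across genes for mice 1, 2 and 3. Arrays of different numbers correlated at -0.059 to 0.018. The highest of these, Grem1+ of mouse 3 with Grem1- of mouse 1, was above the same-numbered value of mouse 1. To 6 decimals, at most 0.00222% of values were identical between any 2 arrays.

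The members and lists were chosen with earlier results of these data known, so no list was tested as a set and no p-value was adjusted over a list. Every tested transferase gene is named. Within a class, genes past the threshold and the 2 others with the highest mean are given on every array; from other lists, up to 4 genes past the threshold, or up to 2 where none passed. Other array values, and Ncam1, C1galt1c1, Neu1 and Selplg, were added after their values were seen. The motifs were chosen after the expression values were known.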

Additional observations from a re-analysis of the deposited data

How the results depend on the processing

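With all 3 mice, 455 alternative values of the 40 genes were computed, of which 422 kept their direction and side of the threshold, 6 lost a call, 22 gained a call and 5 changed sign. Without the replicate block 9 transferase genes were higher and 4 lower. The mean of probe sets gave 8 higher, and the most variable probe set and the omission of shared probe sets gave 1 lower each, the last because both St8sia4 probe sets carry an _a_at suffix and were left out. Without the filter 500 of all genes and 5 of the other glycan genes were lower, and with an intensity trend 3 of the other glycan genes were higher.

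With a mouse left out, over fits with and without the block, 0 to 769 of all genes were higher (767, 764 and 769 without the block and mouse 1, 2 or 3) and 0 to 525 lower (507, 422 and 525), 0 to 3 transferase genes were higher and 0 to 2 lower, and 0 to 3 other glycan genes were higher and 0 to 6 lower. With the block kept all of these counts were 0, while 2881 to 3018 genes had an unadjusted p under 0.05; that fit has fewer residual degrees of freedom. Without the block, St8sia4 passed with any mouse left out (adjusted p = 0.0199 to 0.0437), Fut4 did not without mouse 2 (adjusted p = 0.0516), B4galt6 did not without mouse 2 or 3, B3gnt9 did not without mouse 2 or 3, B4galt7 did not without mouse 1 or 3, and St6galnac2 did not without mouse 1 or 2.

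Signs changed for genes that did not pass. Galnt4 stood at 0.016 under median centring and 0.027 under cyclic loess. With probe sets averaged Mgat4a stood at 0.26, and with the most variable one at 0.57. Fut11 stood at 0.37 with the mean and at 2.27 on the probe set that passed on its own. On a further probe set St3gal1 stood at -0.40, Mgat2 at 0.65, Mgat4a at 0.57 and Galnt11 at -0.47. With a mouse left out, St3gal3 ran from -0.020 to 0.20, St6galnac1 from -0.031 to 0.15, Fut11 from -0.25 to 0.23, Mgat2 from -1.33 to 0.083, Mgat4b from -0.49 to 0.16, Mgat4a from -0.21 to 0.13 and Galnt4 from -0.59 to 0.41 (0.14 without mouse 2). The cause of these changes was not tested. Background correction could not be repeated, and for dim genes the difference has only a bound.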

Other observations

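Several transferase genes that did not enter the test stood above log2 4 on a lone array. Galnt12 was at 5.82 on the Grem1+ array of mouse 2, against 3.34 to 3.86 on the other arrays of both groups. B4galt4 was at 5.35 and St8sia6 at 5.21 on the Grem1+ array of mouse 1. B3galt1 was at 5.39 on the Grem1+ array of mouse 3, on 1 of its 5 probe sets. B3gnt6 was at 4.71 on the Grem1- array of mouse 2. With a value on a lone array there is no replicate check of these levels.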
